A study of Mus musculus with 4 samples.

Results

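Heparan sulfate proteoglycans are proteins at the cell surface or in the matrix that carry long sulfated sugar chains, and 10 genes of this system were followed here in adherent cells grown from mouse spleen. They are the 4 syndecans Sdc1, Sdc2, Sdc3 and Sdc4, the glypicans Gpc1, Gpc3, Gpc4 and Gpc6, and the sulfotransferase genes Hs3st1 and Hs6st2. Members were the probe sets whose gene symbol in the deposited tables was exactly one of these names, which gave 26 probe sets of 45037, or 10 genes of 19747 with a single symbol. Splenic adherent cells that had grown into compact colonies (SACCs) were set against monolayered adherent cells, the controls, all from C57BL/6J mice, on 4 Affymetrix arrays of total RNA. SACC replicate 1 came from colonies moved to a serum-free medium made for mouse embryonic stem cells (ES medium), and SACC replicate 2 from colonies kept in the serum-containing plain medium. Both controls were grown in plain medium. The labels give each SACC array its own control as reference, and the pairs are called here after the SACC medium: replicates numbered 1 form the ES pair, those numbered 2 the plain pair. Each pair was deposited in its own table. Pieces of spleen were the starting material, and the labels do not say how many animals an array stands for.

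Syndecans span the membrane and glypicans are held to it by a lipid anchor. In the Golgi, their heparan sulfate chains are started on serine residues of the core protein, lengthened by exostosins, and then sulfated step by step by N-, 2-O-, 6-O- and 3-O-sulfotransferases. The resulting sulfation pattern sets which growth factors, chemokines and proteases a chain can bind, and in lymphoid organs such chains on stromal cells and vessels are known to hold chemokines in place. Outside the cell the chains are trimmed by sulfatases and heparanase, and after uptake they are taken apart in lysosomes.

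All values are log2 expression as deposited, and a ratio is SACC minus control within a pair, so 1 means that SACCs had 2-fold more. Values of different pairs stand on tables that appear to have been normalized separately, as the array medians of the ES pair were 4.52 and 4.59 and those of the plain pair 4.35 and 4.34. A ± is the moderated standard error of limma over 2 pairs, and a gene rose or fell only where the Benjamini-Hochberg adjusted p of that fit over all probe sets was under 0.05. The replicates are not described as separate animals or cultures. The spread behind these p-values is the gap between the ratios of the 2 pairs, moderated over all probe sets. It mixes technical spread with every difference between the pairs and need not measure the spread among animals or cultures. The pairs differ in more than the medium. Over its 3 probe sets, Xist, the RNA that silences an X chromosome in female cells, lay between 7.96 and 11.47 on the arrays of the ES pair and between 2.06 and 4.49 on those of the plain pair. The Y-linked helicase Ddx3y lay between 2.07 and 2.98 and between 7.81 and 9.37 in the same order. Sex-linked RNA, SACC medium and table therefore differ together between the pairs and cannot be told apart, while both arrays of a pair were on the same side of this split. Within the ES pair, Xist was lower on the SACC array with all 3 probe sets, at 7.96 against 9.04, 9.11 against 9.47 and 10.53 against 11.47.

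The cultures held macrophage as well as fibroblast RNA. All 10 genes of a macrophage marker list were lower in SACCs in both pairs, with a log2 summed level of 14.05 and 14.18 on the SACC arrays and 15.37 and 15.49 on the controls. Its brightest members, Lyz2 and Csf1r, had ratios of -0.68 and -0.55 and of -1.86 and -1.64. All 10 fibroblast markers were higher in both pairs, with a summed level of 15.99 and 15.69 against 14.83 and 14.02. The brightest, Col1a2 and Col3a1, had ratios of 1 and 1.45 and of 0.87 and 1.73 on their brightest probe sets, and that of Col1a2 held the highest value of the ES SACC array, 14.16. Dimmer probe sets of the same genes passed the test, with 1.94 and 1.71 for Col1a2 and 2.3 and 2.69 for Col3a1. With any probe set 6 of the 10 macrophage genes fell and 6 of the 10 fibroblast genes rose. Of all genes, 2.33% passed in either direction, and 34.7% were lower and 30.4% higher in both pairs at any size. No marker was at 0 on any array. The part of these shifts in the results below was not tested, and in bulk RNA fewer cells of a type and less RNA per cell cannot be told apart.

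Hs3st1, Sdc1 and Sdc2 rose in SACCs, no member fell, and the other 7 genes did not pass the test with any probe set. Of the 26 member probe sets 3 passed, all of them higher, beside 0.642% of all probe sets that passed higher, 0.662% that passed lower and 1.3% in either direction. Counted without a test on the probe set of highest mean per gene, Hs3st1, Sdc1, Sdc2 and Hs6st2 were at least 2-fold higher in both pairs. These are 4 of 10 members, against 3.38% of all genes, and no member was at least 2-fold lower in both pairs, against 2.68% of all genes. Of the 12221 genes above the median probe set, 636 were at least 2-fold higher and 509 at least 2-fold lower in both pairs. The members were chosen with earlier results of these data known, so shares above those of all genes or probe sets are no independent evidence. In the ES pair alone 5 members were at least 2-fold higher and none lower, beside 6.51% and 4.09% of all genes. The plain pair alone had 5 higher and 1 lower, Sdc3, beside 6.01% and 5.19%. At any size, 6 members were higher in both pairs and 1 lower, beside 30.4% and 34.7% of all genes. The 10 had median ratios of 0.69 (ES pair) and 0.99 (plain pair), where all genes had -0.01 and -0.02, and the 12221 genes above the median probe set 0.08 and 0.01. The calls lay close to the threshold. With each array centred on its median no member probe set passed (limma, smallest adjusted p over all probe sets 0.0636, 13 of the 26 at an unadjusted p under 0.05), and without the pair as a term none passed either (smallest adjusted p 0.16, 7 of the 26 unadjusted).

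**Figure D1:**
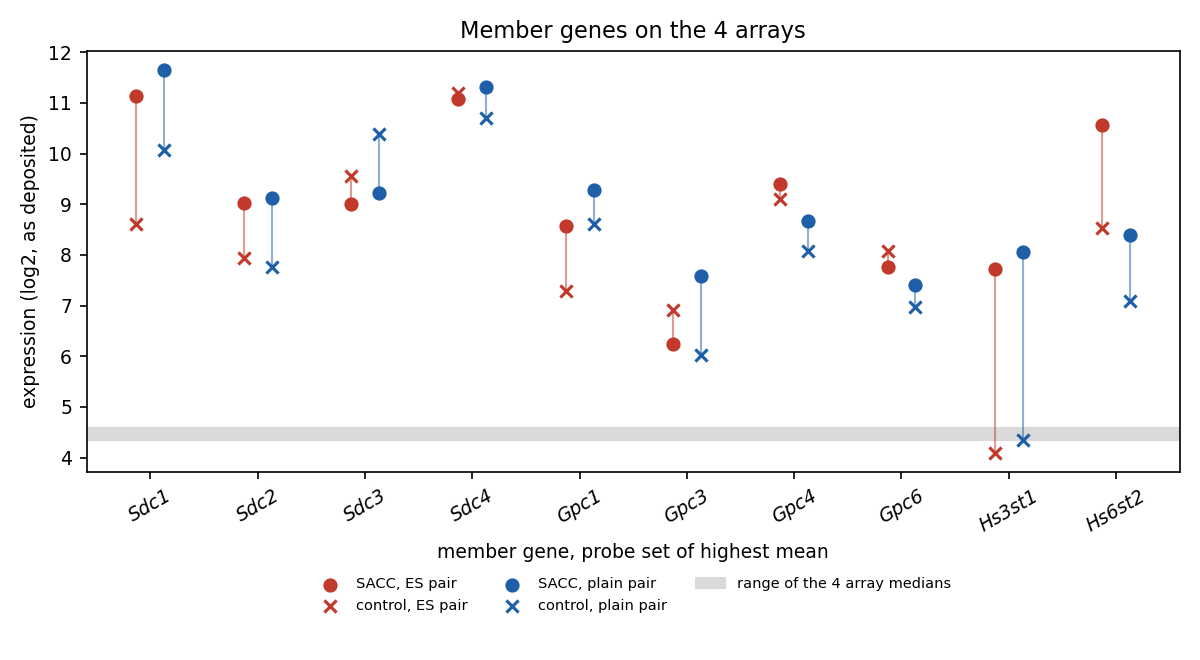
Log2 expression of the 10 member genes (horizontal axis, probe set of highest mean) on the 4 arrays. Circles are SACC arrays and crosses controls, red for the ES pair and blue for the plain pair, lines join the arrays of a pair, and the grey band spans the 4 array medians from 4.34 to 4.59. Hs3st1 runs from 4.1 and 4.34 in controls to 7.72 and 8.06 in SACCs, while the circles and crosses of Sdc4 lie close together.

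Hs3st1 had the largest ratio of the members. It encodes the 3-O-sulfotransferase that completes the rare heparan sulfate motif bound by antithrombin. Its single probe set, 1423450_a_at, read 7.72 on the SACC array of the ES pair and 8.06 on that of the plain pair, against 4.1 and 4.34 on the controls. Both SACC values stood far above both control values, and the ratios of the pairs, 3.62 and 3.72, were nearly equal. The mean ratio was 3.67 ± 0.16 (SE, n = 2 pairs), a 12.7-fold difference with a limma adjusted p of 0.0476. The control values lay at or below the medians of their arrays, so the size of the fold is uncertain. Of 12220 other genes brighter than the median probe set, those whose pair of ratios lay nearest to that of Hs3st1 were the imprinted RNA H19, with 3.73 and 3.75, and the GTPase gene Iigp1, with 3.66 and 3.57. Adamts3 (3.23 and 3.64), Wnt4 (3.53 and 3.13) and G0s2 (3.4 and 3.16) followed.

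Hs6st2 encodes one of the enzymes that add sulfate at the 6-O position of glucosamine. Its brightest probe set, 1450047_at, read 10.57 in SACCs and 8.53 in controls of the ES pair, and 8.39 and 7.09 in the plain pair. It was thus at least 2-fold higher in both pairs, although the plain SACC value lay just under the control value of the ES pair. The mean ratio of 1.67 ± 0.24 (SE, n = 2 pairs) missed the threshold with a limma adjusted p of 0.074. It passed in 4 of 8 alternative settings, at adjusted p of 0.016 to 0.0473, while averaging the probe sets of the gene gave 0.91 at 0.188. On leaving out an array the pair term was left out too, so the value then compares levels across tables. It was 0.58 without the SACC array of the ES pair, 0.95 without the control of the plain pair and 2.76 without the SACC array of the plain pair. The ratios within the pairs were 2.04 and 1.3. The 1420938_at probe set, below the median on both controls, had ratios of 2.33 and 0.43, and 1420939_at, below the median on every array, 1.39 and -0.06. The fourth, 1446257_at, was also below every median and had ratios of -0.17 and -0.01. In 3 of the 4 probe sets the ratio was larger in the ES pair, and with 1 array per group in a pair that difference was not tested.

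Among the syndecans, Sdc1 was higher in SACCs with each of its 4 probe sets. Sdc1 encodes the syndecan typical of simple epithelia and plasma cells. Probe set 1415944_at read 9.42 and 7.71 in SACCs and controls of the ES pair, and 9.46 and 7.9 in the plain pair. The levels of the pairs nearly coincided, and both SACC values lay above both controls. Its mean ratio was 1.64 ± 0.16 (SE, n = 2 pairs), or 3.11-fold, and it passed the test with a limma adjusted p of 0.0487. The brightest probe set, 1415943_at, read 11.14 and 8.6 in the ES pair and 11.65 and 10.07 in the plain pair. Its ratios of 2.54 and 1.58 averaged 2.06 ± 0.29, and the larger gap between the pairs left it at an adjusted p of 0.0695. The remaining probe sets had ratios of 1.5 and 1.29 (1437279_x_at, a type of probe set that may also pair with other transcripts) and of 1.46 and 1.8 (1448158_at), with adjusted p of 0.0566 and 0.0524 in limma. The 1448158_at levels of the plain pair lay above those of the ES pair by 4.47 in SACCs and 4.13 in controls. A gap of at least 4 in that direction on both arrays was found in 0.0266% of all probe sets, and in the other direction in 0.00666%.

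Of the cells that Sdc1 is typical of, plasma cell markers had near-equal summed levels in the groups. Mesothelial and epithelial markers had a higher one in SACCs, mostly from Wt1. Of 7 plasma cell genes 3 were higher and 1 lower in both pairs, 2 were below the median on every array, and the log2 summed level was 11.67 and 11.43 in SACCs against 11.65 and 11.18 in controls. Xbp1, its brightest gene, made up most of that sum (11.59 and 11.13 in SACCs, 11.5 and 10.87 in controls) and had ratios of 0.09 and 0.26. Prdm1, a regulator of plasma cell formation, fell by 1.93 ± 0.19 (limma adjusted p 0.0487, n = 2 pairs). Jchain, Mzb1 and Derl3 had ratios of -0.31, -0.23 and -0.36 in the ES pair and of 0.63, 0.29 and 0.86 in the plain pair. Jchain read 3.65 and 3.96 in SACCs and controls of the ES pair, and 8.34 and 7.71 in the plain pair. Of 9 mesothelial and epithelial genes 6 were higher and 1 lower in both pairs, 4 were below the median on every array and none passed, with a summed level of 9.32 and 9.34 against 7.54 and 7.78. Wt1, a transcription factor of mesothelium and the brightest, made up most of that difference (8.28 and 8.1 in SACCs, 4.44 and 5.47 in controls). Its ratios were 3.84 and 2.63, and those of Krt8, a keratin of simple epithelia and the next brightest, were 0.91 and 1.89. Epcam, nearly as bright as Krt8, did not share this, with ratios of -0.13 and 0.02. Of the genes below every median, Cdh1 had 0.57 and -0.43, and Msln -0.93 and -0.03. The part of either list in the Sdc1 values was not tested.

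Sdc2, the syndecan of fibroblasts and other mesenchymal cells, was higher with all 3 of its probe sets. Probe set 1417012_at read 8.06 and 6.39 in SACCs and controls of the ES pair and 8.42 and 6.7 in the plain pair, so the groups did not overlap. With ratios of 1.67 and 1.72 its mean was 1.7 ± 0.16 (SE, n = 2 pairs), or 3.24-fold, at a limma adjusted p of 0.0482. The brightest probe set, 1448545_at, read 9.02 and 7.94, then 9.12 and 7.76, and had a smaller mean ratio of 1.22 ± 0.17 with an adjusted p of 0.0705. For 1417011_at the ratios were 1.15 and 1.48. The genes nearest to the passing probe set in both ratios were Hic1 (1.7 and 1.73), Mxra8 (1.64 and 1.69), D13Ertd787e (1.61 and 1.74), Fap (1.67 and 1.65), a fibroblast surface protease, and Gstt1 (1.6 and 1.69). Those nearest to Sdc1 were Zfp365 (1.72 and 1.55), Cdr2l (1.73 and 1.54), Nnmt (1.67 and 1.58), Fkbp14 (1.74 and 1.52) and Arg1 (1.77 and 1.59).

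Sdc3 and Sdc4 did not share this pattern. Sdc3, known best from neurons and also made by macrophages, had the only negative ratios in both pairs among the brightest probe sets of the members. Its 1450027_at read 9.01 in SACCs and 9.55 in controls of the ES pair, and 9.22 and 10.38 in the plain pair. Both SACC values lay below both controls, with a mean ratio of -0.85 ± 0.22 (SE, n = 2 pairs) and a limma adjusted p of 0.185. The other Sdc3 probe sets were also lower in both pairs, with ratios of -0.22 and -1.18 and of -0.37 and -0.23. Macrophage markers were lower in both pairs as given above. Of 6 glial and neuronal markers 3 were higher and 3 lower in both pairs, with a log2 summed level of 10.57 and 9.97 in SACCs against 8.85 and 8.81 in controls, and its brightest gene, the adhesion molecule Ncam1, rose by 2.49 ± 0.22 (limma adjusted p 0.0476, n = 2 pairs). The next brightest, the neuronal tubulin gene Tubb3, had ratios of 1.9 and 0.17. The part of either list in the Sdc3 values was not tested. Sdc4, a widely expressed syndecan of focal adhesions, was at 11.07 and 11.2 in SACCs and controls of the ES pair and at 11.31 and 10.7 in the plain pair (1417654_at). The groups overlapped, the ratios of -0.13 and 0.61 had opposite signs, and the mean of 0.24 ± 0.24 did not exceed its error. Its second probe set gave -0.09 and 0.37. Over all member probe sets, both SACC values lay above both controls in 8 and below them in 2 of 26, where 14.2% and 17.6% of all probe sets did so on levels set across tables.

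**Figure D2:**
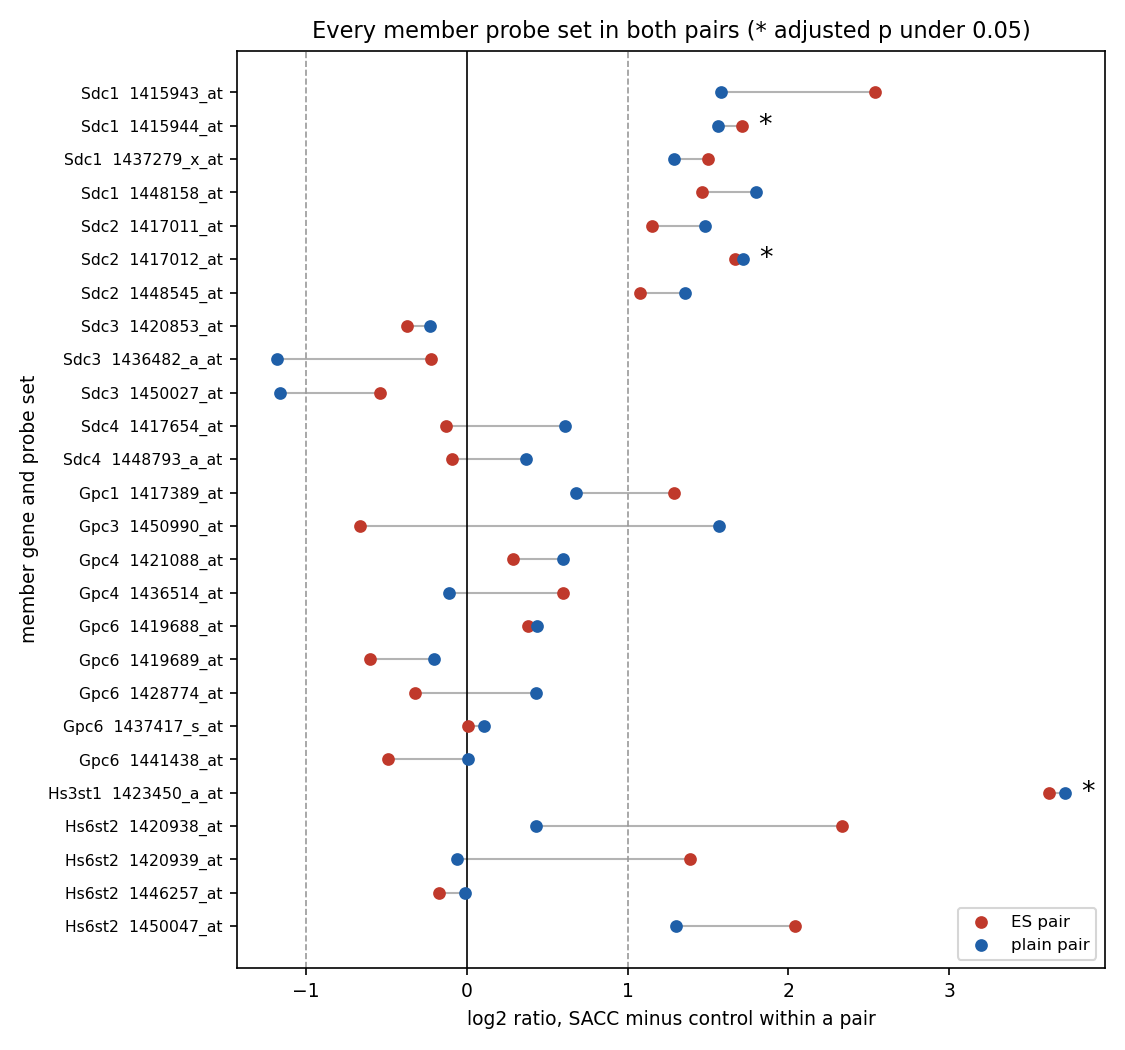
Log2 ratio of SACC minus control (horizontal axis) for each of the 26 member probe sets (vertical axis), red for the ES pair and blue for the plain pair, with dashed lines at 2-fold and an asterisk where the adjusted p of limma was under 0.05. The 4 Sdc1 and 3 Sdc2 probe sets lie beyond 2-fold in both pairs, Sdc3 lies left of 0, and Gpc3 and Hs6st2 have the widest gaps between pairs.

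The sequences just upstream of these genes are shown for Hs3st1 and Sdc1, which rose, and for Sdc3 and Sdc4, which did not pass the test. RefSeq promoter windows (GRCm38.p6, 250 bases before to 50 after the start) were found for 7 of the 10 members, and Sdc2, Gpc1 and Gpc6 had no entry in the table. Those printed are Hs3st1 at chr5:39644582-39644881 on the minus strand, Sdc1 at chr12:8771146-8771445 on the plus strand, Sdc3 at chr4:130792287-130792586 on the plus strand and Sdc4 at chr2:164443139-164443438 on the minus strand. Capitals mark GC boxes, the letters GGGCGG on either strand.
Hs3st1: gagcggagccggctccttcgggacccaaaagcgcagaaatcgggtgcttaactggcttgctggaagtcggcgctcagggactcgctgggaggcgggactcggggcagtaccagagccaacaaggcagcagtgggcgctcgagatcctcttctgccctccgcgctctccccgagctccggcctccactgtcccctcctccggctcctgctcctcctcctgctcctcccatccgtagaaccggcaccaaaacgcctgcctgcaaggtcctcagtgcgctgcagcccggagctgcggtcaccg
Sdc1: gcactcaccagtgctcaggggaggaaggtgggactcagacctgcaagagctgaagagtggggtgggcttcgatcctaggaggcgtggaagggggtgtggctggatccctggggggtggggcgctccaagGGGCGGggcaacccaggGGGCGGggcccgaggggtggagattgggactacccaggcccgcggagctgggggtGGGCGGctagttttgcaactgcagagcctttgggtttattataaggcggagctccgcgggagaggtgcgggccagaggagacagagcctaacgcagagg
Sdc3: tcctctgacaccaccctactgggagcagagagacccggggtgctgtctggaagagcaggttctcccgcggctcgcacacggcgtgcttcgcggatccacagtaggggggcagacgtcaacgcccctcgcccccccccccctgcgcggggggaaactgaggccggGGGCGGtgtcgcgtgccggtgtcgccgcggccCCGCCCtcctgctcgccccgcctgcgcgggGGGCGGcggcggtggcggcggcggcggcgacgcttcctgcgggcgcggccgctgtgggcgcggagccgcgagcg
Sdc4: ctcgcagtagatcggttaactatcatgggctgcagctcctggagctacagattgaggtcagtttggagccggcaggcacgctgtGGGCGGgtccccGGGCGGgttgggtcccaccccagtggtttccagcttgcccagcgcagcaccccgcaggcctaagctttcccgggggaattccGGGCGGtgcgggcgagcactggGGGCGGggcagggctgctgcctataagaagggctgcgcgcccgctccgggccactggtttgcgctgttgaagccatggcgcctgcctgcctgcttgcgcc
In this order the windows held 0, 3, 3 and 4 GC boxes, and 35.7% of 32851 windows of the same length in the table held at least 1. All 4 windows were rich in G and C, at 67, 66.3, 77.7 and 67.7% against a median of 52.7% over the table. None of the 4 windows held the TATA box letters TATAAA on either strand, which 13.6% of all windows did, and none held the AP-1 letters TGANTCA, found in 7.81%. A CCAAT box (CCAAT, 37.4% of all windows) and an E-box (CANNTG, 72.3%) were each found once in the Sdc1 window and not in the other 3. No matches of different motifs overlapped in these windows, and a match describes letters, not a bound site.

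None of the 9 glypican probe sets passed the test. Gpc1, the most widely expressed glypican, read 8.57 and 7.28 in SACCs and controls of the ES pair and 9.28 and 8.6 in the plain pair. It was higher in both pairs, but the SACC value of the ES pair lay just below the control of the plain pair. The mean ratio was 0.99 ± 0.22 (SE, n = 2 pairs), with a limma adjusted p of 0.146. Gpc4 read 9.39 and 9.1 in the ES pair and 8.67 and 8.07 in the plain pair (1421088_at), a mean ratio of 0.45 ± 0.17 at an adjusted p of 0.33. Its second probe set had ratios of 0.6 and -0.11, so the sign in the plain pair was not shared.

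Gpc3, whose human counterpart is mutated in an overgrowth syndrome, went opposite ways in the pairs. It read 6.25 in SACCs and 6.91 in controls of the ES pair, and 7.59 and 6.02 in the plain pair, with ratios of -0.66 and 1.57. The plain SACC array thus had the highest value and the plain control the lowest. The mean of 0.46 ± 0.58 was smaller than its error. Gpc6 had 5 probe sets of mixed sign. The brightest, 1428774_at, read 7.76 and 8.08 in the ES pair and 7.4 and 6.97 in the plain pair, the groups overlapping, with ratios of -0.32 and 0.43. The others had mean ratios from -0.4 to 0.41, and 1441438_at was below the median on every array. Of all genes with several probe sets, 41.2% had mean ratios of both signs. Gpc3, Gpc4 and Hs6st2 have X-linked promoter windows, and sex-linked RNA differed between the pairs, so gaps between their pairs stand on arrays that differ in this too.

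**Figure D3:**
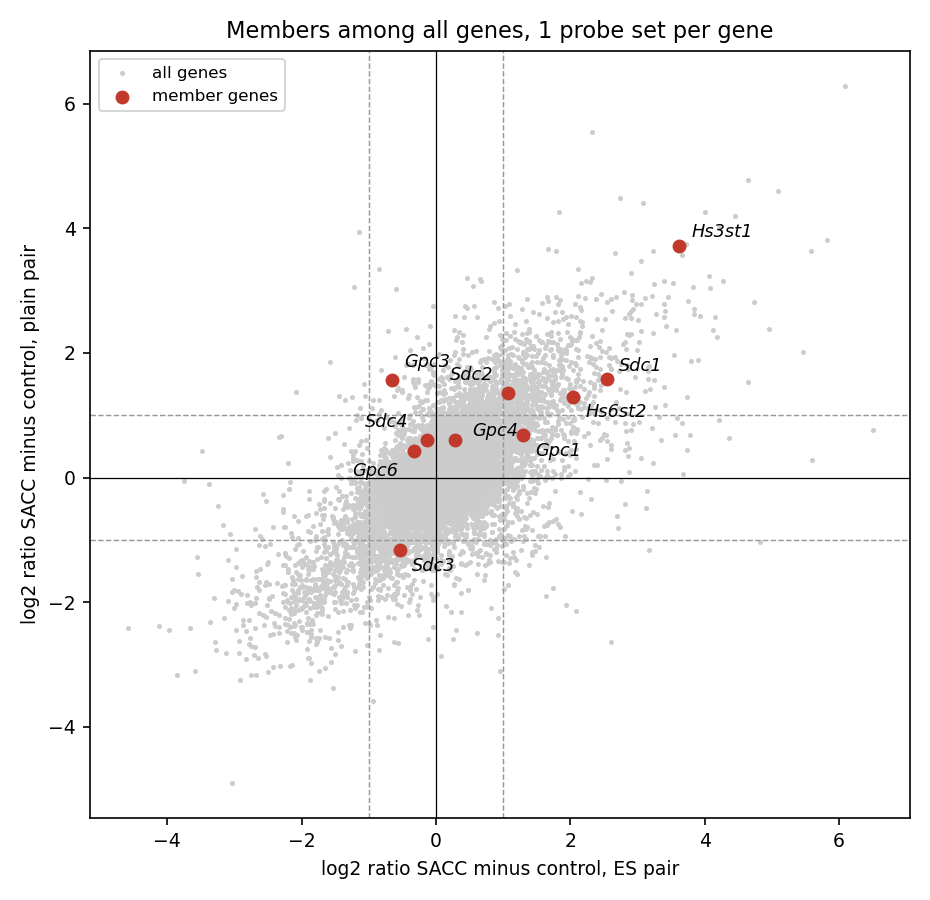
Log2 ratio of SACC minus control in the ES pair (horizontal axis) against the plain pair (vertical axis), with 1 probe set per gene, grey for 19747 genes and red for the 10 members, and dashed lines at 2-fold. Hs3st1, Sdc1, Sdc2 and Hs6st2 lie in the upper right field beyond 2-fold, Sdc3 in the lower left quadrant, and Gpc3 in the upper left.

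Other genes of the pathway were read from 7 lists with 69 genes, of which 68 were measured. Of the 68, 2 rose, Agrn and Chst15, and none fell, while 2.33% of all genes passed in either direction with any probe set. Their medians were 0.18 (ES pair) and 0.01 (plain pair). In both pairs 8 genes were at least 2-fold higher and 2 at least 2-fold lower, against 3.38% and 2.68% of all genes. For the list counts that follow, 30.4% of all genes were higher and 34.7% lower in both pairs at any size. Agrn, a large heparan sulfate proteoglycan of basement membranes, read 8.94 and 7.42 in the ES pair and 8.19 and 6.65 in the plain pair. Both SACC values lay above both controls, and the mean ratio of 1.53 ± 0.16 (SE, n = 2 pairs) had a limma adjusted p of 0.0495, while its second, dim probe set (mean level 3.03) had ratios of -0.3 and -0.45. Of the 7 further core proteins 4 were higher and 1 lower in both pairs, and 2 were dimmer than the median on all 4 arrays.

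Apart from Hs3st1, no gene measured here that builds or sulfates the heparan sulfate chain passed the test. With any probe set, only 2.33% of all genes passed in either direction. Ext1 and Hs6st2 missed the threshold narrowly (limma adjusted p 0.0588 and 0.074), so the calls alone do not set Hs3st1 apart from them. The adjusted p of Hs3st1, 0.0476, was the smallest over all probe sets and was shared with others, Chst15 among them. Its unadjusted limma p was 2.2e-05, against 0.00128 for Ext1 and 0.00241 for Hs6st2. Of 10 linkage and polymerisation genes 6 were higher and 3 lower in both pairs, none passed, and the medians were 0.21 and 0.07. Ext1, a subunit of the heparan sulfate polymerase, was the only one at least 2-fold higher in both, reading 10.15 and 8.89 in the ES pair and 10.09 and 8.8 in the plain pair (ratios 1.26 and 1.29, limma adjusted p 0.0588). Its second probe set, with a mean level of 4.56, had ratios of -0.27 and -0.05. Of the 14 other modification genes none passed or was 2-fold different in both pairs, the medians were 0.15 and -0.01, and 7 were below the median on all 4 arrays. Hs2st1, the 2-O-sulfotransferase, had the largest mean ratio of that list (0.79 and 0.44), with 2 of its 4 probe sets of the other sign. The 5 genes that supply the sulfate donor had medians of 0.2 and -0.21 and none passed, with Papss2, a synthase of the donor, at 1.47 and 0.11. Dimmer Papss2 probe sets had mean ratios from -0.13 to 0.41.

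Genes that edit or shed the chains outside the cell included Sulf1, the largest mean ratio among the 68. Of its 8 genes 4 were higher and 4 lower in both pairs, with 3 at least 2-fold higher and 1 at least 2-fold lower, and none passed the test. Sulf1, a sulfatase that removes 6-O-sulfate groups from finished chains, read 10.49 and 8.67 in the ES pair and 10.07 and 7.28 in the plain pair. Both SACC values lay above both controls, and the mean ratio of 2.31 ± 0.29 (SE, n = 2 pairs) had a limma adjusted p of 0.0603, and of its other probe sets 1 had 1.86 and 2.63 and the dimmest -0.15 and -0.16. The membrane protease Mmp14 had ratios of 1.98 and 1.43 (adjusted p 0.0587) and the gelatinase Mmp9 2.29 and 1.03 (adjusted p 0.135), and both are known to shed syndecan ectodomains. Adam17 and Adam10, further proteases known to do so and named after their values were seen, had ratios of -0.59 and -0.66 and of -0.23 and -0.14. Hpse, the heparanase that cuts the chains, was lower in both pairs, at 6.84 against 7.86 and at 6.55 against 8.14, with a mean ratio of -1.3 ± 0.21 and an adjusted p of 0.088.

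Lysosomal enzymes of heparan sulfate breakdown were lower in SACCs in both pairs for 7 of 8 genes, beside 34.7% of all genes. The list medians were -0.74 and -0.79, and none passed the test. Sgsh, the sulfamidase lacking in a human mucopolysaccharidosis, read 6.64 and 8.13 in the ES pair and 6.22 and 7.54 in the plain pair, a mean ratio of -1.4 ± 0.16 (SE, n = 2 pairs) at a limma adjusted p of 0.0545. Its second, dimmer probe set (mean level 4.38) had ratios of -0.21 and -0.24. Such enzymes are abundant in macrophages, whose 10 markers had medians of -1.86 and -2.1, and the part of this in the lysosomal values was not tested.

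For comparison, 16 genes of chondroitin and dermatan sulfate, the other main class of sulfated chains on proteoglycans, had medians of 0.71 and 0.26, with 9 higher and 3 lower in both pairs. Chst15, which adds a further sulfate to chondroitin, rose by 2.12 ± 0.19 (SE, n = 2 pairs) at a limma adjusted p of 0.0476. It read 8.69 and 6.37 in the ES pair and 7.03 and 5.11 in the plain pair, so both SACC values lay above both controls. A second, dimmer Chst15 probe set (mean level 4.29) had ratios of 2.37 and 0.78 at a limma adjusted p of 0.199. The chain-starting enzyme gene Csgalnact1 had ratios of 1.28 and 2.7 and the polymerase gene Chsy1 1.08 and 1.37, at adjusted p of 0.118 and 0.0706.

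**Figure D4:**
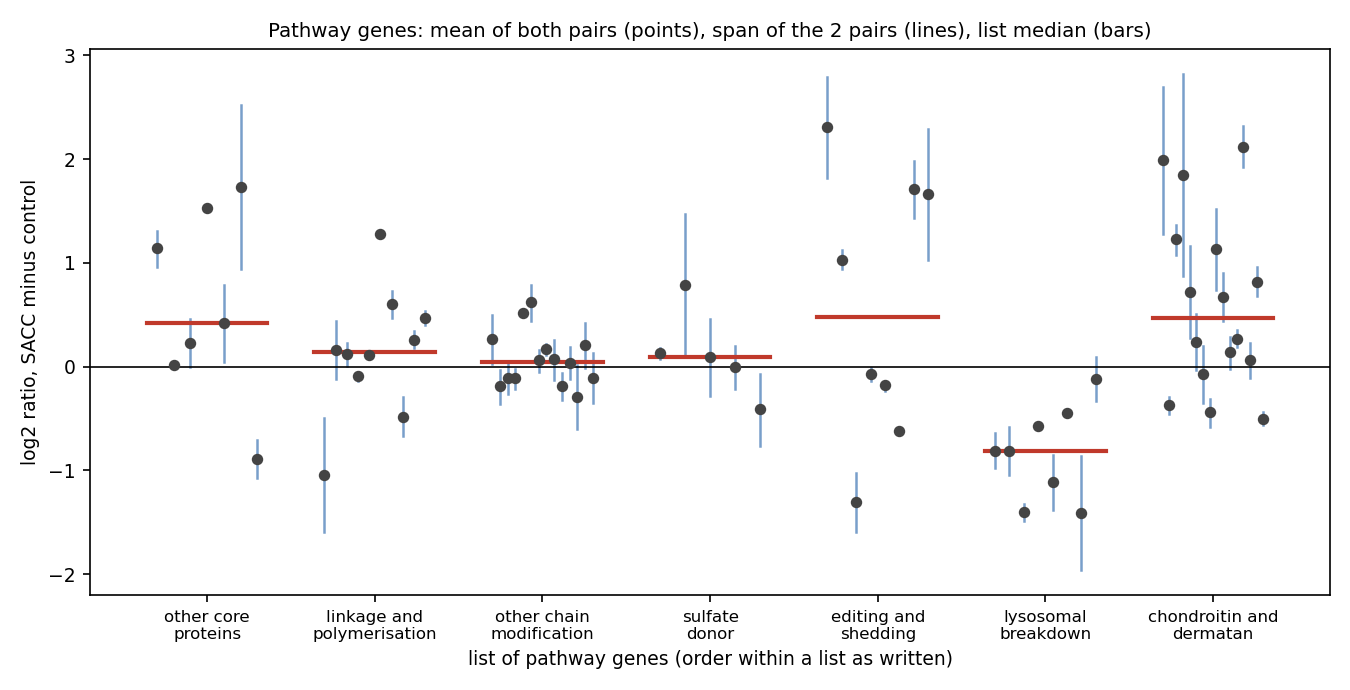
Log2 ratio of SACC minus control (vertical axis) for the 68 measured pathway genes in 7 lists (horizontal axis). Points are means of both pairs, blue lines span the ES and plain pairs, and red bars are list medians of the means. The lysosomal points lie below 0, and the editing and shedding list spreads from Hpse at -1.3 to Sulf1 at 2.31.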

How the data were processed

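RNA of 4 arrays was analysed, 2 SACC and 2 control, grouped by the labelled cell state and paired by the reference that the labels name for each SACC array. The authors deposited log2 values for each probe set, with a table for each pair. The submitters' processing notes name Transcriptome Analysis Console. How probes were summarised, normalized and placed on a build is not given in the sources used here. Sorted values differed by at most 0.14 and 0.2 within tables and by up to 0.32 across them. The deposited series-wide table held identical values. Precision is limited by the number of arrays.

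Limma 3.58.1 in R 4.3.3 (lmFit, eBayes; group and pair as terms) was run on all 45037 probe sets without a filter, with 1 residual and 2.97 prior degrees of freedom, Benjamini-Hochberg adjustment and a threshold of 0.05. The procedure was tested on simulated data. The same-pair arrays deviated together from their group means (correlation 0.65 over probe sets, which share a table and sex-linked RNA). Where 1 value per gene is given it is the probe set of highest mean. Symbols were taken from the tables and updated through RefSeq (33553 current, 1116 synonyms, 1440 not in it). Probe sets with several symbols (1236), none (7628) or a date (64) were not named.

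All members are named. Of each pathway list, genes that passed or were 2-fold different in both pairs were named (at most 4, by mean ratio), or else the largest mean ratio. Of each marker list described, the 2 brightest were named. Further plasma cell, mesothelial and epithelial genes were named after their values were seen. For passing probe sets, the 5 nearest genes by distance in the 2 ratios are named. The members and lists were chosen with earlier results of these data known. Alternatives were the fit without pairs, other scaling, filters, moderation and gene summaries, and leaving out arrays.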

Additional observations from a re-analysis of the deposited data

Results flagged for a closer look

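The brightest probe sets of 3 members had ratios of opposite sign in the pairs, which was not tested, since each pair has 1 array per group. The ratio of the plain pair exceeded that of the ES pair by 2.23 for Gpc3 (-0.66 and 1.57), by 0.74 for Sdc4 (-0.13 and 0.61) and by 0.75 for Gpc6 (-0.32 and 0.43). The SACC medium, the table and sex-linked RNA differ along with the pairs and cannot be told apart. A second Sdc4 probe set had the same signs (-0.09 and 0.37), and 1 of the other 4 Gpc6 probe sets, at -0.49 and 0.01, did so too.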

How the results depend on the processing

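With 4 arrays and 1 residual degree of freedom, the calls depended on scaling and on how the spread was modelled. The direction of the passing members did not change, but most alternatives could hardly change it. Leaving out the pair, the filter, the trend and robust moderation keep the mean ratio by design, and centring shifts all ratios alike. Over all probe sets 587 passed in the reported fit, of which 3 were member probe sets and 2 belonged to the pathway lists. The corresponding numbers were 0, 0 and 0 with no replicate block (the pair left out of limma; 3497 unadjusted p under 0.05) and 0, 0 and 0 with each array centred on its median (7405 unadjusted). They were 2045, 9 and 14 after quantile normalization over the 4 arrays and 1326, 8 and 9 when dim probe sets, those under the median one, were left out. An intensity trend gave 898, 6 and 6, robust moderation 2623, 9 and 14, the brightest probe set per gene 1027, 4 and 7, and averaging the probe sets of a gene 909, 3 and 4. Leaving out any of the 4 arrays, without the pair block since no residual degree of freedom is left with it, gave 0, 0 and 0 (2264 to 3535 unadjusted over all probe sets). Members at least 2-fold different in both pairs numbered 4, and 1 at a 3-fold threshold. The runs on pathway lists and the single-pair counts of 2-fold members (5 and 6) were chosen after seeing the data.

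The passing probe sets of Hs3st1, Sdc1 and Sdc2 kept their direction in every alternative run on them (for Sdc1 and Sdc2 not that with the brightest probe set per gene, which is another one), with mean ratios of 3.5 to 3.84, 1.54 to 1.73 and 1.52 to 1.88 on leaving out an array. Their adjusted p in limma ranged from 0.00359 to 0.16, 0.00712 to 0.168 and 0.00633 to 0.188 over the other alternatives, and from 0.304 to 0.69 on leaving out an array. Of the members that did not pass, Gpc6 turned to -0.01 after quantile normalization and to -0.02 as the mean of its probe sets. Leaving out an array also left out the pair term, so those values compare levels across tables and not only the weight of 1 array. The mean ratio then ran from -0.5 to 0.61 for Gpc6, -0.21 to 1.13 for Gpc3, -0.07 to 0.96 for Gpc4 and -0.01 to 0.49 for Sdc4. With no change of sign it ran from 0.58 to 2.76 for Hs6st2, 0.33 to 1.65 for Gpc1, -1.26 to -0.43 for Sdc3 and 1.33 to 2.8 for the brightest Sdc1 probe set. The lowest sizes came without SACC replicate 1 (Hs6st2), control replicate 1 (Gpc1 and Sdc1) and control replicate 2 (Sdc3). That Sdc1 probe set passed in 6 of 8 other alternatives, and Hs6st2 in 4. Signal limits the folds of Hs3st1, whose controls lay at or below the array medians.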

Other observations

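An Sdc1 probe set stood apart from the others across the pairs. Its 1448158_at read 5.62 and 4.16 on the arrays of the ES pair and 10.09 and 8.29 on those of the plain pair, gaps of 4.47 and 4.13, whereas the gaps of the other 3 ran from -0.2 to 1.47, on levels set across tables that appear normalized separately. Only 15 of 45037 probe sets differed by at least 4 in the same direction on both arrays of the pairs, and 8 of these belong to Xist or Y-linked genes. Of the remaining 7, probe sets of Ctnnb1, Gdi2, Msn and Serinc3 had gaps of 4.17 to 5.81, all higher in the plain pair, although another probe set of each had gaps of 0.17 and 0.27 (Ctnnb1), -0.1 and -0.03 (Gdi2), -0.14 and 0.22 (Msn) and -0.35 and -1.05 (Serinc3). Further probe sets had intermediate gaps in the same direction, of 2.05 and 3 for Ctnnb1, 1.13 and 2 for Gdi2 and 1.08 and 1.06 for Serinc3. The 2 others were 1452463_x_at of Igk and 1427455_x_at, which has no single symbol here. The within-pair ratios of the Sdc1 probe set were 1.46 and 1.8, and those of the other 3 ran from 1.29 to 2.54. These genes were singled out after their values were seen.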
